A study of Populus deltoides x Populus x canadensis with 6 samples.

Results

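Among the RNAs counted in the young poplar stem, 1093 rows of the deposited table stand outside the Potri identifiers of the Populus trichocarpa gene set and are called unannotated here. Their identifiers are a fixed word followed by a number, and each is given in the text as a transcript with that number. The 200 of these rows with the highest mean FPKM over all libraries are described, out of 35792 rows in all. FPKM is a count scaled by transcript length and by the total count of the library, so it can be compared between rows of different length. The members were chosen by this mean FPKM, and their levels are therefore given as a description. All 6 libraries came from the leafless basal 2 cm of stems of the hybrid poplar clone Nanlin 895, harvested at an age of 45 days; plants grew under glass in days of 16 h light and 8 h dark. Each of the 3 wild type (WT) and 3 mutant (pdbri1-1;2;3;6) libraries was made from a pool of 30 plants. By its label the mutant carries lesions in 4 BRI1 genes. The labels describe the pools as biological replicates but do not say how the mutations were made or whether the mutant pools came from 1 or several independent lines, so p-values measure the spread between pools. Total counts ran from 17752822 to 21096052 per library.

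In RNA sequencing, rows of this kind commonly stand for transcripts assembled from reads that map where the reference annotation holds no gene. They can be long non-coding RNAs, protein-coding genes that the annotation missed, pieces or extensions of known transcripts, or unspliced RNA, and the name does not say which. The BRI1 family comprises receptor kinases at the cell surface through which plant cells sense brassinosteroids. These steroid hormones promote cell elongation and the differentiation of xylem, and in woody stems they act on the vascular cambium, the dividing layer between wood and bark. In a whole stem piece, fewer cells of a type and less RNA per cell cannot be told apart. The table holds no name, description, position or sequence for any unannotated row (0 of them carry a symbol), so the members are given by identifier, length, level and change, and no function is attached to any of them. Potri rows are likewise paired with no gene name (0 rows carry a symbol other than their own identifier), so the tissue and genotype labels were not checked against named genes.

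The members were of moderate abundance, with a steep head and a long tail. Their mean FPKM ran from 148 down to 5.22, with a median of 10.4. Only 6 members reached 100 FPKM, 40 reached 20 FPKM, and 94 stood under 10 FPKM. The most abundant member ranked 510 among all 35792 rows, and 6 members stood among the 1000 most abundant rows of the table. Of the Potri rows, 49.1% stood above the lowest member. At the lower limit the values were nearly continuous. Transcript 9877, the last row inside, had FPKM values of 4.53, 5.25 and 6.24 in wild type stems and 4.62, 4.85 and 5.85 in the mutant. Transcript 17558, the first row outside, had a mean of 5.21 FPKM, with 7.74, 7.51 and 5.80 in wild type stems and 3.27, 3.32 and 3.64 in the mutant.

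**Figure D1:**
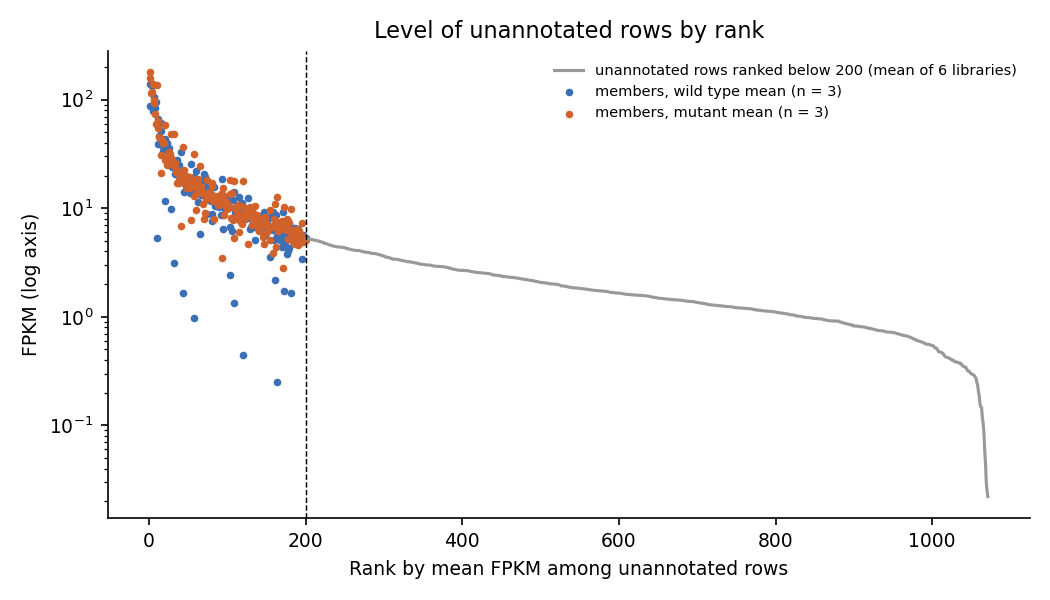
FPKM on a log axis against rank by mean FPKM for the unannotated rows, with the wild type and mutant means (n = 3 each) of the 200 members as points and the lower ranked rows as a line. The 2 genotype means lie close together for most members, while a set of wild type points falls far below the curve, down to 0.253 FPKM.

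A choice by the mean of both genotypes also admits rows that are high in 1 of them. Of the 200 members, 156 were also among the 200 best unannotated rows by the wild type mean alone and by the mutant mean alone. Another 25 were among the best by the wild type mean only, and 19 by the mutant mean only. The 10 best of each genotype had 9 members in common, though not in the same order.

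The members held 0.342% ± 0.001 of each wild type library's counts and 0.369% ± 0.003 of each mutant library's (SD, n = 3 each). Per library the share was 0.342%, 0.344% and 0.341% in wild type stems and 0.366%, 0.371% and 0.369% in the mutant, without overlap (two-sided exact permutation p = 0.1, the smallest that 3 against 3 libraries allow). The direction of this difference depended on the scaling. As a share of library totals the mutant stood at 1.08 times the wild type. After scaling by TMM, which sets most genes equal between libraries rather than the totals, it stood at 0.989 times (two-sided exact permutation p = 0.2). Summed FPKM, which also rests on library totals, was 3416 ± 8.91 in wild type stems and 3804 ± 85.4 in the mutant (SD, n = 3 each; p = 0.1 by the same exact permutation test). The 200 members accounted for 71.0% ± 0.20 of the counts of all 1093 unannotated rows in wild type stems and 69.9% ± 0.50 in the mutant (SD, n = 3 each).

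The members were short. Each count, its FPKM and the library total together give the length that the authors used, which was a median of 937 bases for the members (quartiles 485 and 1660, range 200 to 6298). Lower ranked unannotated rows had a median of 538 bases, and Potri rows in the same range of mean FPKM had a median of 1828 bases; these differences were not tested. Of the unannotated rows, 22 had no count in any library and thus no length. No other unannotated row was under 200 bases, whereas 201 Potri rows were. By length, 53 members were under 500 bases, 54 had from 500 to under 1000, 61 from 1000 to under 2000, and 32 had 2000 or more. At equal FPKM a shorter row holds fewer counts. The median of the mean counts per library was 219 for the members and 577 for those Potri rows. Single counts of a member ran from 1 to 3929, and every member had at least 1 count in every library.

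**Figure D2:**
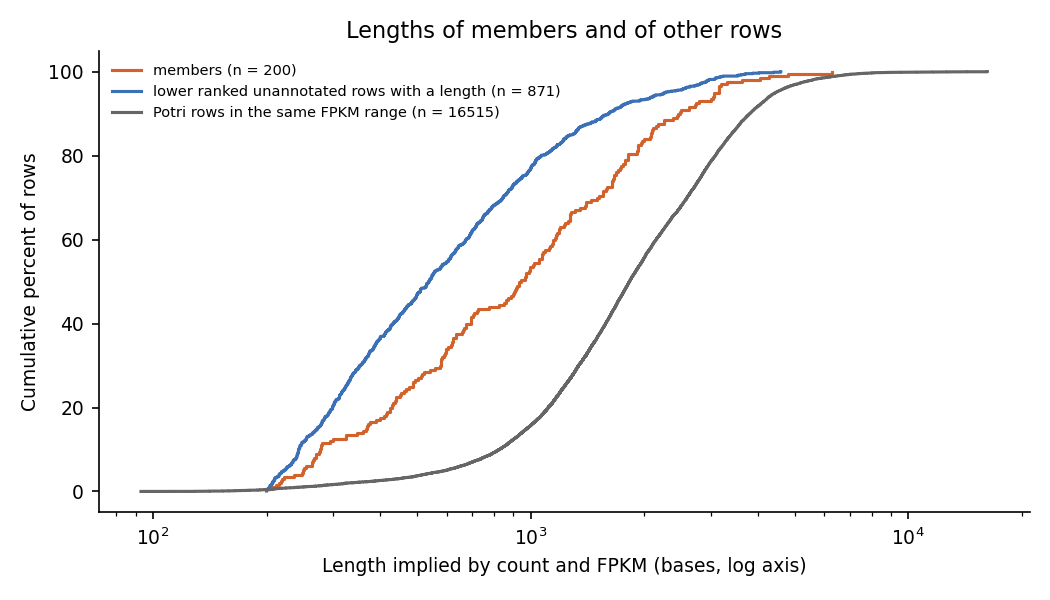
Cumulative percent of rows against length in bases on a log axis, for the 200 members, the lower ranked unannotated rows with a count and the Potri rows with a mean FPKM in the members' range. The members lie between the other 2 curves, with medians of 937, 538 and 1828 bases.

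Replicates of most members lay close together. The coefficient of variation of FPKM between the 3 libraries of a genotype was under 10% for 138 members in wild type stems and for 119 in the mutant, with medians of 6.86% and 8.20%. Potri rows in the same FPKM range had medians of 4.29% and 4.77%, with the higher counts given above; the part of depth in this difference was not tested. Spread was larger in the shortest members, with medians of 11.4% (wild type) and 12.9% (mutant) under 500 bases against 4.61% and 6.28% at 2000 bases or more. Taking all members, each library held the highest scaled level of its genotype for 58 to 74 members.

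The 10 most abundant members made up 27.9% ± 0.07 of the members' summed FPKM in wild type stems and 30.8% ± 0.57 in the mutant (SD, n = 3 each). Their lengths ran from 251 to 1920 bases, and 7 of them were under 600 bases. Of these 10, 3 rose and 5 fell in the mutant and 2 did not pass the test. Calls rest on edgeR's quasi-likelihood test of the counts of 27382 rows with TMM scaling; the adjusted p (Benjamini-Hochberg, over all these rows) had to lie under 0.05. In that comparison 64.1% of the tested rows were called, so a call alone does not set a member apart. Fold changes below come from this fit. Since FPKM uses library totals and TMM raises the wild type relative to the mutant, folds of mutant over wild type lie below the ratio of the FPKM values, and those of wild type over mutant lie above it.

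Transcript 13411, 589 bases long and the most abundant member, had 135, 142 and 138 FPKM in wild type stems and 153, 146 and 176 in the mutant. The mutant values lay above the wild type values in FPKM, but after TMM scaling the libraries overlapped. Its log2 fold change was 0.07 (95% interval -0.03 to 0.17, adjusted p = 0.224, edgeR). Scaled by library totals only, the value was 0.19 and passed (adjusted p = 0.0013, edgeR). Without mutant replicate 3, the highest library, it was -0.02, and without mutant replicate 2, the lowest mutant library, it was 0.12 and passed (adjusted p = 0.0337, edgeR).

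Transcript 4829, with 1056 bases, had 88.7, 91.3 and 79.9 FPKM in wild type stems and 179, 181 and 180.4 in the mutant. The groups were far apart, and the mutant libraries hardly differed from each other. It rose 1.91-fold (log2 0.93, SE 0.04, adjusted p = 5.07e-25, edgeR). Transcript 17410, with 971 bases, showed the same kind of step, from 80.5, 79.4 and 75.5 FPKM in the wild type to 144, 137 and 136 in the mutant. It rose 1.63-fold (log2 0.70, SE 0.04, adjusted p = 2.66e-20, edgeR). The third riser among these 10 changed far more. Transcript 15446, with 494 bases, had 6.09, 4.95 and 4.89 FPKM in wild type stems and 134, 182 and 98.5 in the mutant. It stood among the 200 best of each genotype, but it reached the 10 most abundant through the mutant libraries. Its rise of 23.9-fold (log2 4.58, SE 0.42) came with a wide spread among mutant libraries and an adjusted p of 0.000708 (edgeR).

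The 5 fallers among the 10 changed by less than 2-fold. Transcript 9524, at 1920 bases the longest of them, had 91.6, 99.6 and 94.2 FPKM in wild type stems and 58.5, 60.2 and 59.3 in the mutant. It fell by 0.80 on the log2 scale (SE 0.04, adjusted p = 6.83e-24, edgeR), a wild type level 1.75 times that of the mutant. Transcript 15891, with 513 bases, had 143, 147 and 135 FPKM in wild type stems and 113, 117 and 112 in the mutant, and its wild type level was 1.35 times that of the mutant (adjusted p = 2.63e-11, edgeR). The groups of both members were well apart. Transcript 18053, with 463 bases, had 135, 136 and 127 FPKM against 111, 117 and 125, so the lowest wild type library lay close to the highest mutant library (1.23 times, adjusted p = 1.37e-06, edgeR). Transcript 3231, with 489 bases, had 86.3, 80.5 and 84.4 FPKM against 65.9, 78.2 and 76.7 (1.24 times, adjusted p = 9.14e-06, edgeR). Both differences were small beside those of transcript 9524. For transcript 19592, with 487 bases, FPKM values of 109, 108 and 102 in wild type stems and 92.0, 99.7 and 106 in the mutant overlapped. After TMM scaling its libraries did not overlap. Its wild type level was 1.17 times that of the mutant with TMM scaling (adjusted p = 0.000302, edgeR), and this call was lost with library totals only (log2 -0.10, adjusted p = 0.0982, edgeR).

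Transcript 27700, only 251 bases long, had the widest spread among wild type libraries of these 10. Its FPKM values were 73.9, 67.0 and 110.3 in wild type stems and 75.6, 102 and 102 in the mutant. In FPKM, replicate 3 of the wild type lay above every mutant library, while the other 2 wild type libraries lay below them all. The log2 fold change was 0.02 (95% interval -0.70 to 0.74, adjusted p = 0.952, edgeR). Without wild type replicate 3 it was 0.28 and passed (adjusted p = 0.0457, edgeR).

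**Figure D3:**
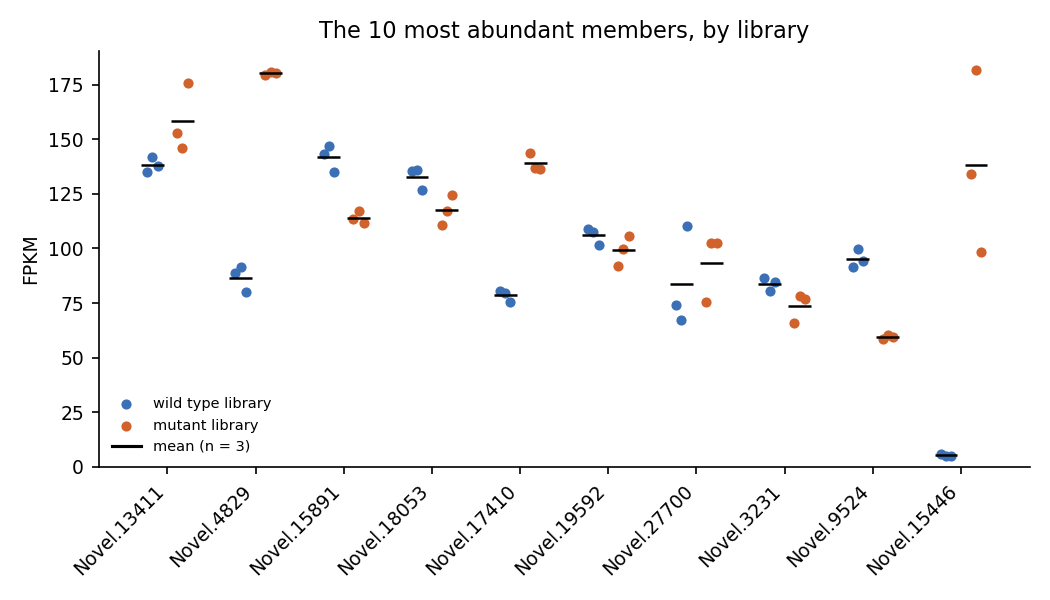
FPKM of the 10 most abundant members in each library, with wild type and mutant libraries as points and the mean of 3 as a bar; labels give the full identifiers. In FPKM, transcript 13411, transcript 4829, transcript 17410 and transcript 15446 are higher in all mutant libraries. Transcript 9524, transcript 15891, transcript 18053 and transcript 3231 are lower in all of them, and the libraries of transcript 27700 and transcript 19592 overlap.

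The next 10 members by abundance, at 65.1 to 35.8 mean FPKM, showed 1 call higher, 4 lower and 5 not called. Over all 200 members, all of which passed the filter on low counts, 116 (58.0%) were called, 51 higher and 65 lower in the mutant. The background over all tested rows was 33.1% higher and 31.0% lower, against 25.5% and 32.5% of the members. Among Potri rows of the same FPKM range, 67.0% were called, 29.0% higher and 38.0% lower. Among lower ranked unannotated rows, 587 of 893 passed the filter, and 37.5% of those were called. These shares are descriptions, and the rows differ in depth as given above. After TMM scaling, the libraries of 128 members (64.0%) did not overlap between genotypes, against a background of 67.1%. Overlap in FPKM, as given for single members, can differ from this. The members' median log2 fold change was -0.07, with quartiles of -0.42 and 0.24; over all tested rows it was 0.01.

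Of the 116 called members, 84 (72.4%) changed less than 2-fold, close to the 70.8% of called rows over the whole table. Changes under 1.2-fold comprised 6 rises and 6 falls. In the class from 1.2- to 1.5-fold there were 15 rises and 28 falls, and in that from 1.5- to 2-fold 12 rises and 17 falls. All calls under 2-fold comprised 33 rises and 51 falls in the members, and 5360 rises and 7077 falls over all tested rows. The lean to falls among small changes was thus not particular to the members. The balance of directions depended on the scaling. With library totals only, 69 members were called higher and 51 lower (background 42.7% and 21.3%), and the median of all tested rows moved from 0.01 to 0.13. With that shift the members' median moved from -0.07 to 0.05. The change of scaling moved all rows by nearly the same amount. That the members' median stayed below that of all tested rows was thus fixed in advance, and nothing is read from it. No member called with both scalings changed its direction (102 such members), and so small a shift could reverse only small changes. Tested against a fold of 1.2 instead of no change, 77 members passed (background 39.4%), 34 higher and 43 lower (background 23.5% and 15.9%).

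**Figure D4:**
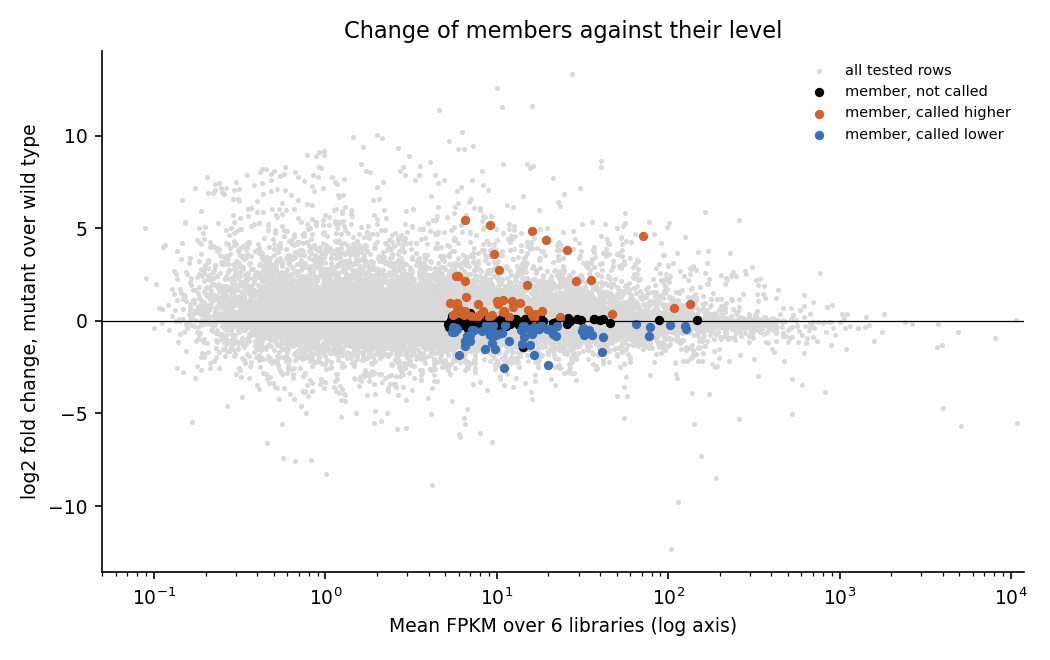
Log2 fold change of mutant over wild type against mean FPKM on a log axis, with all 27382 tested rows in grey and the members coloured by call. The members fill a band above 5.22 FPKM; most lie near 0, a few reach a log2 change of 4 to 5.46, and the lowest called member is at -2.54.

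Of the members, 32 (16.0%) were called and changed at least 2-fold, against 18.7% of all tested rows and 10.8% of Potri rows in the same FPKM range. There were 18 rises (9.0%, background 13.5%) and 14 falls (7.0%, background 5.19%). At 4-fold or more there were 13 rises (background 5.85%) and 2 falls (background 1.43%), and 5 rises reached 16-fold (background 1.52%). These counts depend on how members were chosen, since a row low in the wild type can enter through the mutant and the reverse. All 18 risers were among the 200 best by the mutant mean alone, but 7 of them by the wild type mean alone. Likewise all 14 fallers were among the 200 best by the wild type mean and 7 by the mutant mean. Of the 156 members that stood in both, 7 rose and 7 fell at least 2-fold (4.49% each, background 13.5% and 5.19%). In this set 3 rose and 1 fell at least 4-fold, and 1 rose at least 16-fold. By construction the restriction removes rows that are low in either genotype, so nothing is read from these counts. With library totals only, the split over all members was 24 rises and 11 falls (background 15.3% and 4.28%). Ranking by the mean of log2(FPKM + 0.1), which places rows with a low level in 1 genotype further down, gave 12 rises and 14 falls. Ranking by mean CPM, a count scaled by library size that ignores length, gave 13 and 14.

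Together the 18 risers held 69.9, 69.5 and 76.7 FPKM in the wild type libraries and 515, 614 and 491 in the mutant libraries. The 14 fallers held 265, 274 and 273 FPKM in wild type stems and 98.5, 93.3 and 100.3 in the mutant. These sums describe rows picked for their change and are not tested. Risers were short, with a median of 559 bases and 9 of 18 under 500 bases. Fallers had a median of 1134.5 bases, with 3 of 14 under 500 bases. The difference in length was not tested.

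Of the 8 largest rises, 3 started from almost nothing in the wild type. Transcript 15930, with 660 bases, had 3, 1 and 6 counts in wild type stems and 137, 162 and 174 in the mutant, or 0.253 ± 0.178 and 12.7 ± 2.38 FPKM (SD, n = 3 each). Summed counts, scaled for library size, gave a ratio of 45.4 with a 95% exact interval from 24.5 to 95.4 that covers counting error only, and the log2 fold change was 5.46 (SE 0.29, adjusted p = 1.03e-21, edgeR). Transcript 28289, with 414 bases, had 3, 2 and 6 counts against 170, 130 and 124. Its ratio was 37.0 (95% exact interval 20.5 to 74.8) and its log2 fold change 5.16 (SE 0.28, adjusted p = 6.15e-22, edgeR). Both were low but counted in every wild type library, and uniformly high in the mutant. Transcript 28648, with 348 bases, had 6, 7 and 7 counts against 207, 278 and 130. Its mutant libraries spread over more than a factor of 2, and the log2 fold change of 4.87 had an SE of 0.50 (adjusted p = 0.000168, edgeR). The same order of mutant libraries, with replicate 2 highest and replicate 3 lowest, was seen for transcript 15446, described above, at 1374, 1593 and 893 counts. Without single libraries the log2 fold changes of these 2 members stayed within 4.52 to 5.09 and 4.33 to 4.77. Their highest adjusted p was 0.00733 and 0.00688 (edgeR). The log2 fold changes of transcripts 15930 and 28289 moved more, from 5.02 to 6.12 and from 4.85 to 5.64.

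The other 4 named risers were already present in the wild type. Transcript 11411, with 665 bases, had 2.09, 1.54 and 1.35 FPKM in wild type stems and 33.6, 38.3 and 38.9 in the mutant. It rose 20.5-fold (log2 4.36, SE 0.14, adjusted p = 2.36e-31, edgeR). Transcript 14795, with 467 bases, went from 3.34, 2.72 and 3.35 FPKM to 46.8, 46.0 and 52.0. It rose 14.1-fold (log2 3.82, SE 0.13, adjusted p = 3.93e-30, edgeR), with both groups tight around their means. Transcript 12476, with 624 bases, had 1.25, 1.18 and 1.60 FPKM in wild type stems and 20.2, 14.3 and 19.3 in the mutant, a rise of 12.2-fold (adjusted p = 2.19e-22, edgeR). Transcript 27635, with 267 bases, had 2.29, 2.02 and 3.02 FPKM against 14.6, 22.2 and 17.96, a rise of 6.74-fold (adjusted p = 6.91e-14, edgeR). Of these 8 risers, transcript 15446 alone was among the 200 best unannotated rows by the wild type mean. The remaining 10 members with rises of at least 2-fold changed by 2.06- to 5.41-fold, at mean levels of 5.75 to 35.2 FPKM.

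Transcript 1807, with 726 bases, had 18.5, 19.3 and 17.9 FPKM in wild type stems and 2.65, 3.03 and 4.80 in the mutant. Its wild type level was 5.81 times that of the mutant (log2 -2.54, SE 0.14, adjusted p = 7.07e-21, edgeR). Transcript 10994, with 1074 bases, had 32.4, 33.0 and 34.2 FPKM against 6.68, 6.66 and 7.10. Its wild type level was 5.30 times that of the mutant (log2 -2.41, SE 0.08, adjusted p = 1.75e-30, edgeR). Replicates of transcript 10994 were tight in both genotypes, whereas mutant replicate 3 of transcript 1807 stood above the other 2.

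Transcript 13581, with 636 bases, was the most abundant of the strong fallers. It had 57.9, 62.8 and 64.2 FPKM in wild type stems and 18.4, 21.5 and 23.0 in the mutant, a wild type level 3.22 times that of the mutant (adjusted p = 1.98e-25, edgeR). Among short members, transcript 10052, with 275 bases, had 27.3, 25.1 and 23.6 FPKM against 7.88, 7.58 and 7.73 (3.55 times, adjusted p = 6.66e-14, edgeR). Transcript 20614, with 212 bases, had 26, 47 and 44 counts in wild type stems and 12, 11 and 11 in the mutant (3.54 times, adjusted p = 1.15e-06, edgeR), and its low counts leave a 95% interval of -2.44 to -1.20 on the log2 scale.

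The other 3 named fallers were long rows with close replicates. Transcript 27782, with 1926 bases, had 14.0, 14.8 and 13.7 FPKM in wild type stems and 5.73, 5.18 and 5.12 in the mutant (2.88 times, adjusted p = 3.02e-22, edgeR). Transcript 3468, with 1927 bases, had 13.6, 12.3 and 11.5 FPKM against 5.23, 4.30 and 4.55 (2.87 times, adjusted p = 1.6e-20, edgeR). Transcript 339, with 3160 bases, had 9.04, 9.47 and 9.21 FPKM against 3.72, 3.74 and 4.16 (2.60 times, adjusted p = 1.74e-21, edgeR). Wild type and mutant libraries were clearly apart in all 3. Of the named fallers, transcripts 10994, 10052 and 13581 alone were also among the 200 best unannotated rows by the mutant mean. The others were so by the wild type mean only. The remaining 6 falls of at least 2-fold ran from 2.12 to 2.48 times, at mean levels of 6.50 to 15.7 FPKM.

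**Figure D5:**
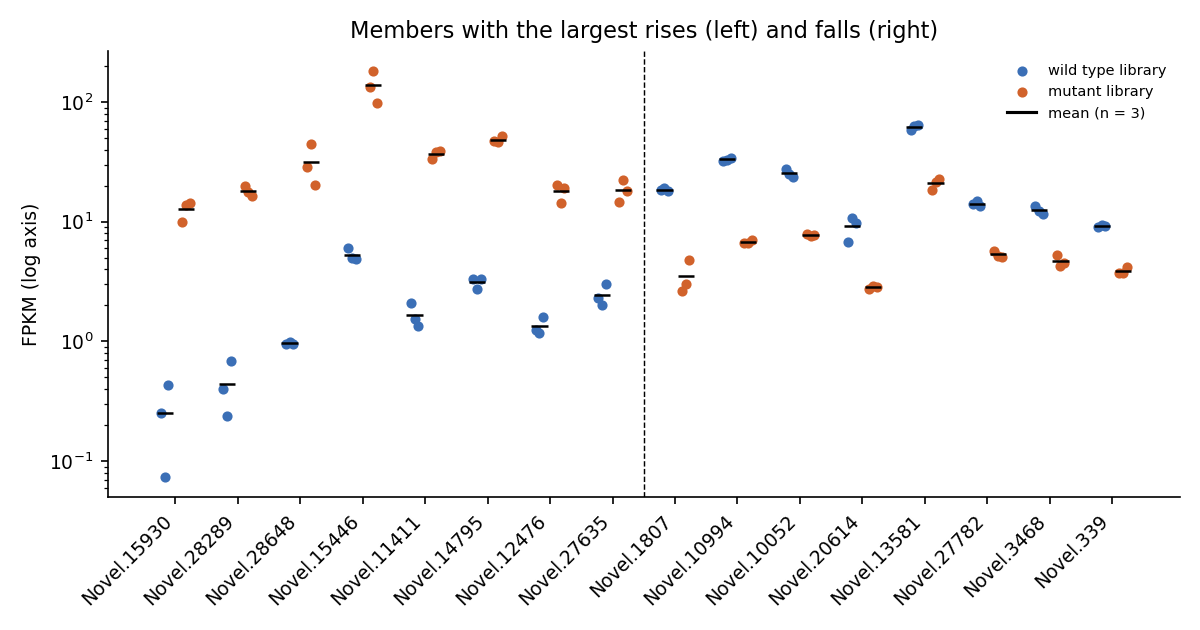
FPKM on a log axis, per library, of the 8 members with the largest rises (left) and the 8 with the largest falls (right); bars are means of 3 libraries, and labels give the full identifiers. Wild type and mutant libraries are apart for all 16. The risers start at 0.253 to 5.31 FPKM on average, and the fallers end at 2.83 to 21.0 FPKM.

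Of the 84 members not called, most were measured closely enough to bound their change. The 95% interval of the fold change lay within 1.5-fold in either direction for 72 of them, and it reached beyond 2-fold for 1. After TMM scaling, the libraries of 17 uncalled members did not overlap between genotypes, so a miss of the threshold does not show equal levels. The share of such rows among all uncalled rows was not computed, so the count does not set the members apart. Transcript 703, with 1596 bases, had 25.8, 25.9 and 25.7 FPKM in wild type stems and 27.4, 26.5 and 28.8 in the mutant. With TMM scaling its log2 fold change was -0.03 (95% interval -0.13 to 0.08, adjusted p = 0.68, edgeR), while with library totals only it was 0.10 (adjusted p = 0.104, edgeR). Transcript 10518, with 1160 bases, had 39.7, 36.4 and 37.5 FPKM against 40.9, 47.0 and 39.9, and a log2 fold change of 0.05 (95% interval -0.07 to 0.16, adjusted p = 0.485, edgeR). It passed with library totals only (log2 0.17, adjusted p = 0.00818, edgeR). Transcript 8402, with 1348 bases, had 33.5, 34.3 and 33.7 FPKM against 38.5, 42.4 and 38.4, without overlap. Its log2 fold change of 0.11 missed the threshold with TMM (adjusted p = 0.0623, edgeR) and passed with library totals only (log2 0.23, adjusted p = 0.000132, edgeR) and when mutant replicate 1 or mutant replicate 3 was left out (log2 0.13 for both, adjusted p = 0.0399 and 0.0417, edgeR).

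A few members varied widely between pools of the same genotype. The coefficient of variation of FPKM was above 25% in at least 1 genotype for 15 members, 10 of them under 500 bases, and 8 of the 15 (53.3%) were called, against 64.1% of all tested rows. In 1 member it was above 25% in both genotypes. This was transcript 27778, chosen for mention after its values were seen, with 248 bases and 120, 163 and 13 counts in wild type stems and 95, 9 and 15 in the mutant. Its high and low libraries occurred in both genotypes. The coefficient of variation was 77.2% in wild type stems and 115% in the mutant, and the log2 fold change of -1.41 had a 95% interval of -4.71 to 1.89 (adjusted p = 0.375, edgeR).

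Some members may share reads with other rows, and their separate values are then uncertain. The identifier numbers run from 12 to 28684, and 36 members carry a number next to that of another unannotated row; whether such rows are neighbours in the genome is not given in the sources used here. In 6 pairs both rows were members. Both were called in 2 of these pairs, each time in the same direction; with 64.1% of all tested rows called, nothing is read from this count. Transcript 27781 and transcript 27782 both fell, with log2 fold changes of -0.48 and -1.53 (adjusted p = 2.09e-05 and 3.02e-22, edgeR). Transcript 20193 and transcript 20194 both rose, by 0.31 and 0.59 on the log2 scale (adjusted p = 0.0275 and 1.7e-08, edgeR). The members of each pair differed in size of change. Without the 36 members, 94 of 164 (57.3%) were called and 29 (17.7%) changed at least 2-fold, beside 64.1% and 18.7% of all tested rows.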

How the data were processed

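RNA sequencing of 6 pooled stem libraries was used. The authors deposited 1 table with whole-number counts per row and FPKM, per the file headers. Not given in the sources used here are the aligner, assembler, counting tool, strand setting and genome build. Lengths implied by count, FPKM and library total were whole (within 0.01 bases) for 100% of 185484 values above 0. Groups came from the genotype labels.

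The test on counts used edgeR 4.0.16 (R 4.3.3) (filterByExpr, TMM, glmQLFit with robust=TRUE, glmQLFTest), checked on simulated data, over 27382 rows. In the simulated data only a small part of the rows changed, with equal numbers of rises and falls. The check therefore does not bear on the choice of scaling. Standard errors and intervals were derived from the F statistic. Single values per library were compared by exact permutation (scipy 1.17.1). DESeq2 1.42.0 and limma 3.58.1 on log2(FPKM + 1) were alternatives. Intervals on counts cover counting error only.

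Members, lists and tests were chosen with earlier results of these data known. Named were the 10 most abundant members, the 8 largest rises and 8 largest falls (called, no overlap after TMM scaling). Also named were the 4 uncalled members with the narrowest intervals and the rows at the limit. No member had 0 counts in a whole genotype and none has a name, so those parts of the rule named none. Marker and BRI1 genes were not analysed here, since the table pairs no identifier, Potri or other, with a gene name.

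Between replicates, the chi-square statistic per member was 1.29 to 2.59 in wild type stems and 2.72 to 3.90 in the mutant, above the value near 1 of sampling noise, so each library was counted separately.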

Additional observations from a re-analysis of the deposited data

How the results depend on the processing

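The count of called members was 100 to 124 under the other scalings, filters and tools, and 107 to 117 when single libraries were left out (116 as reported); 2-fold changes numbered 30 to 35, and 31 to 34 without single libraries (32 as reported). Ranking by mean CPM, median FPKM or mean log2(FPKM + 0.1) gave 113 to 116 calls and 26 to 31 changes of at least 2-fold, and members of at least 300 bases 102 and 25. By construction, the 100 best members held 60 calls and 16 changes of at least 2-fold, and the 400 best 201 and 65. Tested against a fold of 1.2, chosen after seeing the data, 77 members passed. Restricting to members among the 200 best in each genotype, also chosen after seeing the data, left 14 changes of at least 2-fold. By construction this removes rows low in either genotype. Leaving out rows by number was added after seeing the data likewise. The mutant to wild type ratio of the members' share was 1.07 to 1.08 without single libraries and that of summed FPKM 1.10 to 1.13, but the share ratio was 0.989 with TMM-scaled CPM. Of the called members, 44.0% were higher with TMM, 57.5% with library totals and 58.9% with limma on log2(FPKM + 1). Over all tested rows, 33.1% were called higher and 31.0% lower with TMM, and 42.7% and 21.3% with library totals. The move to higher calls with library totals was thus not particular to the members. No share over all rows was computed for limma.

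Over 29 named members and 14 alternatives each, reversals arose in 4 members that were not called. Transcript 703 turned to 0.10 with library totals, 0.092 with limma on log2(FPKM + 1), with or without a filter, and 0.10 with limma on log2(FPKM + 0.1). Transcript 27700 ran from -0.12 to 0.28 without single libraries (-0.06, -0.12, -0.05 and -0.06 without wild type replicate 1 or 2 or mutant replicate 2 or 3), transcript 13411 from -0.017 (without mutant replicate 3) to 0.12, and transcript 10518 from -0.033 (without mutant replicate 2) to 0.084. Of the named calls, that of transcript 19592 was lost with library totals and with limma on FPKM, both of which use library totals. The rises of transcripts 15930 and 28289 (log2 5.46 and 5.16 as reported) were 3.45 and 3.72 with limma on log2(FPKM + 1). The cause of the reversals was not tested.

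The labels state no pairing of wild type and mutant libraries. Deviations of same-numbered libraries correlated at -0.0184 to -0.0064, and for 0 of 6 libraries was the best match the one of its own number. Whether same-numbered libraries shared a batch was not tested. In the fit with a replicate block, 117 members were called and 32 changed at least 2-fold. Depth limits the shortest and least counted members most: 77 members had under 100 counts in at least 1 library.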

Other observations

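Rows numbered close to transcript 28648, which rose 29.2-fold, were picked after their values were seen. Of the named risers, this member alone carries a number next to that of another unannotated row. Transcript 28644, with 1172 bases, had 3, 5 and 4 counts in wild type stems and 60, 54 and 31 in the mutant (log2 3.50, adjusted p = 2.24e-11, edgeR). Transcript 28643, with 500 bases, had 0, 1 and 3 counts against 19, 24 and 18 (log2 3.76, adjusted p = 2.13e-07, edgeR). Transcript 28641 had 10, 15 and 11 counts against 15, 12 and 23 (adjusted p = 0.337, edgeR), and transcript 28647 had too few counts to be tested. None of these 4 is among the 200 best, and whether their numbers mark neighbouring positions was not tested. Over all tested rows, 5.85% were called and rose at least 4-fold.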
